A study of Ananas comosus with 48 samples.

Results

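One day after injection, the miR profiles of ethephon-treated and water-treated pineapple apices were compared in 6 of the 48 small RNA libraries of the series, all miRs included. The members were chosen by their labels alone, as the 3 apex libraries of each treatment labelled day 1. Plants of Ananas comosus cultivar 'MD1' (PRI 73-50), grown in a commercial field, received 10 ml of water in the centre of the plant as the control or 10 ml holding 50 mg of ethephon. Each library was made from 3 apices, and the plot was divided into 3 replications. Apices were sampled at 8 times, first at 6 hours, then each day from day 1 to day 6, and last at day 8, with 3 libraries for each treatment and time. In the study the first plants were harvested on the morning of injection and kept on ice. The 6 hours stand for the end of their dissection in the afternoon, while later samplings were processed by noon. The sampled apex also held young leaf primordia. The table analysed here holds miRs only, so that the apex label could not be checked against marker genes.

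Ethephon breaks down to ethylene in plant tissue, and ethylene induces flowering in pineapple, a practice that growers call forcing. Plant miRs are short RNAs that guide an ARGONAUTE protein to mRNAs with a nearly complementary site, and the mRNA is then cut or its translation is repressed. Many conserved families act on transcription factor mRNAs of the shoot apex. In Arabidopsis, miR160 targets mRNAs of the auxin response factors ARF10, ARF16 and ARF17, which mostly repress auxin-responsive genes, and miR167 targets those of ARF6 and ARF8, which mostly activate them.

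The mature sequences of the 10 miRs with an unadjusted p under 0.05 at day 1 are given here, with that of miR827a-5p, which differed from other samplings, since the comparison turns on them. They are as the deposited list gives them, 5′ to 3′, and the seed (bases 2 to 8) is in capitals.
miR160d-5p: uGCCUGGCucccugaaugcca
miR160a-5p: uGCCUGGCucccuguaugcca
miR167a-5p: uGAAGCUGccagcaugaucuga
miR168b-3p: cCCGCCUUgcaccaacugaau
miR396a-5p: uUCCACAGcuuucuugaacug
miR159b-3p: aUUGGACUgaagggagcucc
miR159e-3p: cUUGGAUUgaagggagcuccu
miR171d-3p: uUGAGCCGcgccaauaucacu
miR164a-3p: cAUGUGCCcaucuucuccacc
miR160e-3p: gCAGUUGGggagccaugcagg
miR827a-5p: uUUUGUUGauagucaucuaacc

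The sequences miR160d-5p and miR160a-5p share a seed and differ by the single substitution A15U, counted from 1 at the 5′ end, with the base of miR160d-5p first. The name miR160d-5p stands also for miR160e-5p and miR160f-5p, and miR160a-5p for miR160b-5p and miR160c-5p. The name miR167a-5p stands also for miR167b-5p. The sequence of miR159a-3p is that of miR159b-3p with 1 more base, U, at the 3′ end. How many mismatches were allowed when reads were assigned is not given in the sources used here, so that reads of such close sequences may have been split between them or counted under both.

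The 6 libraries held 39324 to 70997 counts in listed miRs, from 12372200 to 14629800 sequencing tags each, where the 48 libraries ranged from 18581 to 91791. Of 190 listed sequences, 98 had a count in these 6 libraries and 57 passed the filter on low counts over all groups and were tested. The tested miRs held 99.9% of the counts, and the 10 most abundant 95.0%. Levels are CPM, the cpm values of edgeR over the listed miR counts after trimmed mean of M-values (TMM) scaling, on which 3 counts are worth 46.3 to 71.1 CPM, depending on the library. This covers counting error only. Total counts, sequencing tags, the share of tags in listed miRs, miRs detected, the share of the most abundant miR and the share of the miR159 family gave exact permutation p values from 0.3 to 0.9 (two-sided, 3 against 3, smallest possible p 0.1, all adjusted p 0.9 over the 6 measures). Replicate 1 of ethephon stood apart from the other ethephon libraries. A chi-square test of its counts gave 75.6 and 62.2 per degree of freedom against ethephon replicates 2 and 3, and 16.6 against water replicate 1. Its level of miR159c-3p, the most abundant miR, was 299840 CPM beside 517663 and 506826 CPM in ethephon replicates 2 and 3, and 332105 CPM in water replicate 1. Water replicate 1 also stood apart from its group, less strongly. It was at 19.6 and 12.8 per degree of freedom from water replicates 2 and 3, which were at 7.42 from each other. Those 2 libraries held 500168 and 456980 CPM of miR159c-3p. All pairs of replicates differed by more than sampling noise, with at least 7.42 per degree of freedom, so that none was counted as a duplicate.

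Ethephon apices held less miR160d-5p and more miR167a-5p than water apices at day 1. These were the differentially expressed (DE) miRs, 2 of 57 (3.51%; lower 1, 1.75%; higher 1, 1.75%), at an adjusted p under 0.05 in the edgeR quasi-likelihood test with Benjamini-Hochberg adjustment. A further 8 miRs had an unadjusted p under 0.05, which made 10 in all (17.5%). The median log2 fold change of the 57 miRs was -0.26, with 34 below 0 and 23 above. By DESeq2 and by 2 other scalings (RLE, and totals alone) 3 miRs were called, 2 higher and 1 lower. The median of all miRs lay 0.15 higher with RLE and DESeq2 and 0.11 higher with TMM factors computed without the most abundant miR, and the log2 fold changes below are to be read against such a shift. Fewer cells that express a miR and less of it in each cell cannot be told apart in these apices.

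miR160d-5p was the miR with the smallest p. Water libraries held 4644, 3705 and 4048 CPM and ethephon libraries 1318, 895 and 1351 CPM. All ethephon libraries lay far below all water libraries. The mean fell from 4132 ± 475 CPM (SD, n = 3) in water to 1188 ± 255 CPM (n = 3) in ethephon, 3.49-fold lower, a log2 fold change of -1.80 (SE 0.27, edgeR adjusted p = 1.5e-06). It was called under all 18 alternatives, with log2 fold changes from -1.91 to -1.63. Without ethephon replicate 1 it was -1.89.

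The sister sequence miR160a-5p had a smaller log2 fold change. Water libraries held 4031, 3982 and 3556 CPM and ethephon libraries 2691, 2236 and 2914 CPM. The groups did not overlap, but the log2 fold change of -0.56 (SE 0.20) did not pass the adjusted threshold (edgeR adjusted p = 0.0881). In water the miR160 sequences were at about the same level, with 1.15, 0.931 and 1.14 counts of miR160d-5p for each of miR160a-5p, and in ethephon there were 0.492, 0.402 and 0.466. This ratio is taken within a library and does not depend on scaling. Its log2 difference was -1.24, with an exact permutation p of 0.1, the smallest that 3 against 3 libraries allow (two-sided, adjusted p = 0.575 over 23 ratios).

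The 3p arms of the miR160 hairpins were counted much less often. The passenger-arm sequence miR160e-3p, shared with miR160f-3p, was at 118, 158 and 170 CPM in water and 90.3, 30.8 and 23.7 CPM in ethephon. Its log2 fold change was -1.57 (SE 0.72, edgeR adjusted p = 0.218), in the direction of miR160d-5p, on a mean of 5.00 counts per library. The ratio of miR160d-5p to miR160e-3p overlapped between the groups. miR160b-3p had a log2 fold change of -1.07 and miR160a-3p of 0.41 (edgeR adjusted p 0.480 and 0.620), and neither separated the groups. The whole family, counts summed over its 6 listed sequences and scaled by TMM on family totals, was 8029 ± 768 CPM in water and 4535 ± 1031 CPM in ethephon (n = 3 each). That gave a log2 fold change of -0.83 (SE 0.18, edgeR adjusted p = 0.00105 over 23 families), which was -0.71 without ethephon replicate 2 (adjusted p = 0.0538).

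miR167a-5p moved the other way. Water libraries held 2687, 4121 and 3367 CPM and ethephon libraries 6195, 4719 and 7701 CPM. The lowest ethephon library lay above the highest water library, by a smaller margin than for miR160d-5p. The mean rose from 3392 ± 717 CPM to 6205 ± 1491 CPM (SD, n = 3 each), 1.82-fold, a log2 fold change of 0.87 (SE 0.23, edgeR adjusted p = 0.0150). It was called in 13 of 18 alternatives, whose log2 fold changes ran from 0.68 to 1.03 and adjusted p from 0.000249 to 0.218. The call was lost without water replicate 1 (adjusted p = 0.218), without water replicate 3 (0.0705), without ethephon replicate 3 (0.111), without the filter on low counts (0.0801) and on the scale of all sequencing tags (0.175). Without ethephon replicate 1 it was 0.87 (adjusted p = 0.0454). The 3p arm, miR167a-3p, had 13 counts in water and 9 in ethephon libraries in all and was not tested. The miR167 family total had a log2 fold change of 0.98 (SE 0.23, edgeR adjusted p = 0.00108), and with that of miR160 it made 2 called of 23 families (8.7%). On the scale of all sequencing tags it was 0.85 and no longer called (adjusted p = 0.0867).

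Within a library, miR167a-5p stood at 0.580, 1.11 and 0.832 counts for each count of miR160d-5p in water. In ethephon it stood at 4.67, 5.24 and 5.66. In these 6 libraries the groups were far apart on this ratio, with a log2 difference of 2.67 (exact permutation p = 0.1, two-sided, adjusted p = 0.575). The pair was picked because both miRs were called, so that the ratio restates their difference free of scaling. Of the 23 ratios computed, 4 (17.4%) did not overlap between groups. The other 2 besides those given were miR166d-5p to miR166b-3p, with a log2 difference of 0.39, and miR171a-5p to miR171d-3p, with 0.79.

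**Figure D1:**
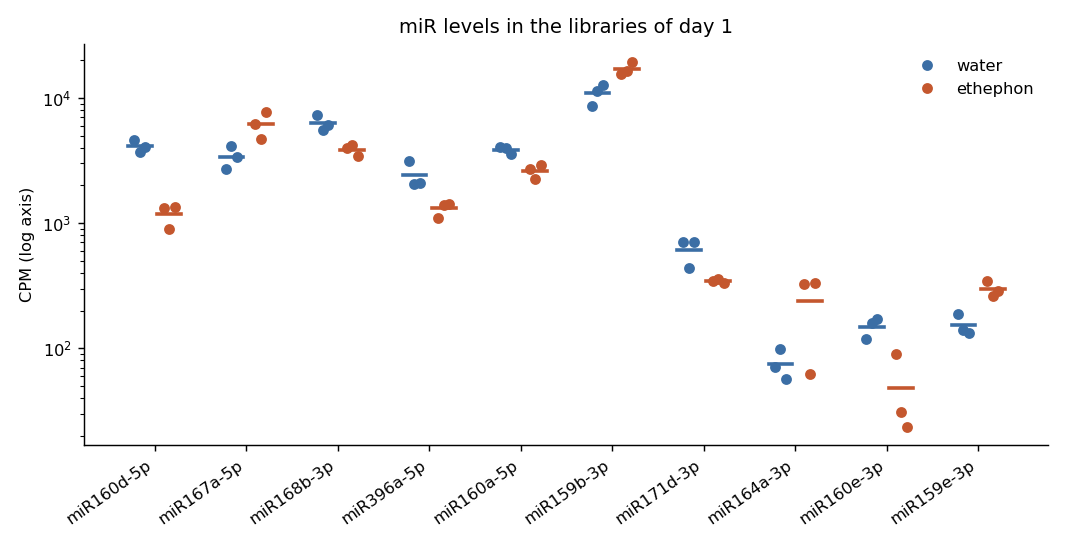
Levels of the 10 miRs with an unadjusted p under 0.05 at day 1, in CPM on a log axis, with a point for each of the 3 water and 3 ethephon libraries and a line at each mean. The groups do not overlap except for miR164a-3p, where ethephon replicate 2 (61.7 CPM) lies among the water libraries.

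**Figure D2:**
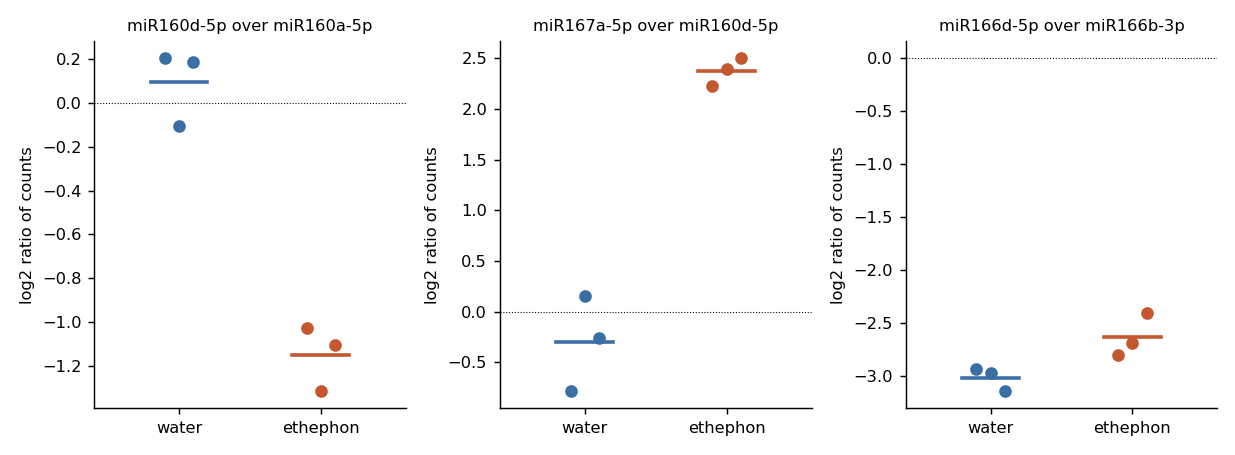
Log2 ratios of counts within a library (0.5 added to each count) for miR160d-5p over miR160a-5p, miR167a-5p over miR160d-5p and miR166d-5p over miR166b-3p, with a point for each library and a line at each mean. The dotted line marks equal counts, and the vertical axes differ. Ethephon libraries lie below water libraries on the first ratio and above them on the others.

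The auxin list, of miR160, miR167, miR390 and miR393, had 10 tested members of 17 listed. Of these 1 was called higher, 1 was called lower and 4 had an unadjusted p under 0.05. Of all 57, 2 were called (3.51%) and 10 had an unadjusted p under 0.05 (17.5%). In the list 8 members were below 0 and 2 above, beside 34 and 23 of all 57. The median log2 fold change was -0.45 beside -0.26 for all tested miRs. miR390, which in Arabidopsis starts the TAS3 small RNAs that act on ARF3 and ARF4 mRNAs, had log2 fold changes of -0.26 for its 5p arm and -0.21 for its 3p arm. miR393, which in Arabidopsis acts on mRNAs of the TIR1 and AFB auxin receptors, had -0.45 for both tested names. Those sequences, miR393a-5p and miR393b-5p, differ by 1 base at the 3′ end and had the same counts in all 6 libraries, so that they are a single observation. Both were nonetheless counted among the 10 tested members and the 8 below 0, and the list median of -0.45 is their value.

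Of all 57 tested miRs, 17 (29.8%) had groups that did not overlap, 11 lower (19.3%) and 6 higher (10.5%) in ethephon. Besides the DE miRs, the 8 miRs with an unadjusted p under 0.05 came from the auxin, small RNA machinery, growth factor, MYB and boundary lists, and 7 of them separated the groups without passing the adjusted threshold.

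Of the miRs that act on the small RNA machinery, miR168 targets the mRNA of AGO1, the main slicing ARGONAUTE in Arabidopsis, and miR162 that of the dicer DCL1. miR168b-3p was at 7260, 5527 and 6072 CPM in water and 3955, 4226 and 3412 CPM in ethephon. Every ethephon library was below every water library, with a log2 fold change of -0.70 (SE 0.22, edgeR adjusted p = 0.0587). With the replicate number as a block it was called (-0.69, adjusted p = 0.0413). The guide arm miR168a-5p was at 6255 ± 256 CPM in water and 4898 ± 951 CPM in ethephon (n = 3 each), a log2 fold change of -0.35 (adjusted p = 0.269), and its groups also did not overlap. miR162a-3p was at 62344 ± 4206 CPM in water and 72712 ± 2839 CPM in ethephon, with groups apart and a log2 fold change of 0.22 (edgeR adjusted p = 0.470). All 3 tested members of this list separated the groups, 2 lower and 1 higher, beside 17 of all 57 miRs (29.8%), 11 lower and 6 higher. The 2 lower were the guide arm miR168a-5p and the other arm, miR168b-3p. None of the 3 was called in the 48 libraries without the block.

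miR396 acts on mRNAs of GRF growth factors and miR319 on those of TCP factors, which both set cell proliferation in young leaves in Arabidopsis. miR396a-5p was at 3111, 2041 and 2081 CPM in water and 1102, 1403 and 1422 CPM in ethephon. The groups did not overlap, and the log2 fold change was -0.88 (SE 0.30, edgeR adjusted p = 0.0835). With the replicate number as a block it was called (-0.91, adjusted p = 0.0413). miR396b-5p and miR396a-3p had log2 fold changes of -0.64 and -0.49 with overlapping groups, and miR396a-3p was at -1.37 without ethephon replicate 3. The passenger arm miR319a-5p was at 542, 515 and 643 CPM in water and 307, 339 and 284 CPM in ethephon, with groups apart and a log2 fold change of -0.86 (SE 0.45, adjusted p = 0.269). miR319d-5p, 1 base different, had -0.91 with overlap. The 3p arm miR319b-3p was the member above 0, with a log2 fold change of 0.15 (SE 0.40, edgeR adjusted p = 0.827) and overlapping groups. Of the 6 tested members of this list 5 were below 0, beside 34 of all 57 miRs. None was called in the 48 libraries without the block, and the median was -0.75. The tested miR319 members below 0 were 5p arms. The list went by the first name of each sequence and so left out miR159c-3p, which is also named miR319a-3p and miR319d-3p. That 3p sequence was at 429751 CPM in water and 441443 CPM in ethephon on average, a log2 fold change of 0.04.

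miR159 acts on mRNAs of GAMYB-like factors. In these libraries the family, taken by the first name of each sequence, held 67.7 to 76.7% of the counts. Its most abundant member, miR159c-3p, held 41.2% of the counts of the 6 libraries and is also named miR319a-3p and miR319d-3p. The family share is therefore not one of miR159 alone. miR159b-3p was at 8580, 11272 and 12654 CPM in water and 15515, 16302 and 19264 CPM in ethephon. Every ethephon library was above every water library, and the log2 fold change was 0.65 (SE 0.24, edgeR adjusted p = 0.0881). It passed the threshold with RLE scaling, with totals alone, in DESeq2 and in the fit to the 6 libraries alone. The longer miR159a-3p was at 39517 ± 6894 CPM in water and 52910 ± 8157 CPM in ethephon, a log2 fold change of 0.42 (adjusted p = 0.387), and its groups overlapped. miR159e-3p, a much rarer member, was at 189, 139 and 132 CPM in water and 343, 262 and 284 CPM in ethephon, a log2 fold change of 0.96 (SE 0.47, adjusted p = 0.263). The more abundant members had values nearer 0. miR159c-3p, whose sequence is also that of miR319a-3p and miR319d-3p, had a log2 fold change of 0.04, which turned to -0.07 without the filter on low counts, and miR159j-3p of -0.20. No member of the MYB list was called in the 48 libraries with TMM scaling. Of the 5 tested, 4 were above 0, beside 23 of all 57 miRs, and the median was 0.42 beside -0.26. Among the 4 was miR159c-3p, which also has miR319 names.

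The list of boundary, meristem and polarity miRs had 19 tested members, none called, with 10 below 0 and 9 above and a median of -0.10. miR171 acts in Arabidopsis on mRNAs of HAM GRAS factors, which keep meristem cells undifferentiated. miR171d-3p was at 707, 436 and 700 CPM in water and 343, 355 and 332 CPM in ethephon, groups apart, with a log2 fold change of -0.83 (SE 0.33, edgeR adjusted p = 0.122). The 4 tested miR171 sequences with the seed UGAGCCG had log2 fold changes from -0.83 to -0.32, all below 0. Besides miR171d-3p they ran from -0.35 to -0.32, near the median of -0.26 of all 57 miRs. These 4 sequences differ from each other by 1 to 3 bases, so that reads may be shared between them. The other tested miR171 sequences were above 0. miR171g-3p was at 1.07 on a mean of 2.33 counts per library, miR171c-3p at 0.10 and the 5p arm miR171c-5p at 0.16. The 5p arms miR171f-5p and miR171a-5p were at 0.05 and 0.09, and at -0.05 and -0.0057 without the filter on low counts.

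miR164, whose 5p arm acts on mRNAs of the CUC boundary factors in Arabidopsis, gave the largest log2 fold change above 0 of the tested miRs, in its 3p arm. miR164a-3p was at 70.7, 99.1 and 56.7 CPM in water and 325, 61.7 and 332 CPM in ethephon. Ethephon replicate 2 lay within the water range, while replicates 1 and 3 lay above it. The log2 fold change was 1.58 (SE 0.67, edgeR adjusted p = 0.157) on a mean of 7.83 counts per library, and without ethephon replicate 2 it was 2.09 (adjusted p = 0.0489). The 5p arm miR164a-5p, at 2121 to 3249 CPM in water, had a log2 fold change of 0.15, and miR164c-3p of -0.16. In both, leaving out single libraries turned the sign. miR164b-5p, with the seed of miR164a-5p, was at 189, 317 and 246 CPM in water and 325, 355 and 427 CPM in ethephon. Its groups did not overlap, and the log2 fold change was 0.53 (SE 0.47, edgeR adjusted p = 0.506).

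miR166 acts on mRNAs of HD-ZIP III factors, which set the upper side of leaves and maintain meristems. miR166b-3p and miR166a-3p, among the most abundant miRs, had log2 fold changes of -0.10 and -0.12, and of 0.04 and 0.03 with RLE scaling, where the median of all miRs was also higher. miR166c-3p had -0.29 and miR166d-5p 0.29. miR166a-5p, a passenger arm, was at 424, 555 and 378 CPM in water and 163, 92.5 and 403 CPM in ethephon. Ethephon replicate 3 lay within the water range, and the log2 fold change was -1.13 (SE 0.58, edgeR adjusted p = 0.269), -1.83 without that library.

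Of the age and phase list, miR156 acts on mRNAs of SPL factors, which promote the adult phase and flowering, and miR172 on those of AP2-like floral repressors. Only miR172 could be tested. miR172a-3p was at 1768, 1149 and 1683 CPM in water and 1228, 1249 and 1256 CPM in ethephon, a log2 fold change of -0.30 (SE 0.26, edgeR adjusted p = 0.506). Water replicate 2 lay below all ethephon libraries, which were close to each other. miR172b-3p had -0.89 (SE 0.66, adjusted p = 0.506) at 36.1 to 236 CPM, and -0.20 without water replicate 1. miR156a-5p had 4 counts in the water and 5 in the ethephon libraries, and miR156a-3p 5 and 3, so that no difference in miR156 was detectable at this depth.

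Among miRs that respond to nutrients in Arabidopsis and rice, miR827 acts on mRNAs of SPX-domain proteins of phosphate homeostasis. miR827a-3p was at 3324, 3427 and 1229 CPM in water and 5129, 4473 and 3649 CPM in ethephon. The groups did not overlap, and the log2 fold change was 0.74 (SE 0.45, edgeR adjusted p = 0.377), water replicate 3 being lowest by far. In the 6 libraries alone with the replicate number as a block it was called (0.84, adjusted p = 0.00986). The 5p arm miR827a-5p was at 401, 456 and 151 CPM in water and 415, 601 and 687 CPM in ethephon, a log2 fold change of 0.76 (SE 0.46, adjusted p = 0.377). Its ratio to the 3p arm was 0.124, 0.135 and 0.130 in water and 0.0826, 0.136 and 0.191 in ethephon, a log2 difference of -0.0065 (exact permutation p = 1.0, two-sided). The third tested member of the phosphate and sulfate list, miR399a-3p, had -0.66 on a mean of 2.83 counts per library, and none of the 3 was called in the fit to 48 libraries. Of the copper list, miR528a-5p, of which mRNAs of copper proteins are targets in rice, was at 1098 ± 417 CPM in water and 605 ± 207 CPM in ethephon, a log2 fold change of -0.83 (SE 0.48, adjusted p = 0.377). miR408a-3p and miR528c-3p had -1.13 and -0.48 with overlapping groups, and none of the 3 was called in the fit to 48 libraries. These nutrient lists also hold miRs known from leaf and vascular tissue. The part of tissue composition in the differences was not tested.

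Of the abundant miRs without a list, miR530a-5p had a log2 fold change of 0.14, with ethephon replicate 3 at 16515 CPM and the other 5 libraries at 6771 to 10044 CPM, and miR530a-3p of 0.30. The lineage-limited list had 2 tested members of 12 listed, none called, with a median of -0.65. No member of the NBS-LRR defence list is in the table. Of 41 miRs with counts in these libraries that were not tested, the most abundant, miR444b-3p, had 12 counts in each treatment.

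Several features were compared over the tested miRs as a description. The 34 sequences from 3p arms had a median log2 fold change of -0.20 and the 23 from 5p arms -0.31. The 35 that begin with U had -0.27, and 47 of the 57 were 21 nt long, with -0.26. The spread between replicates depended on abundance. The 23 miRs with a mean of at least 1000 CPM had a median SD of log2 CPM of 0.20 in water and 0.21 in ethephon, and the 34 below had 0.40 and 0.55.

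**Figure D3:**
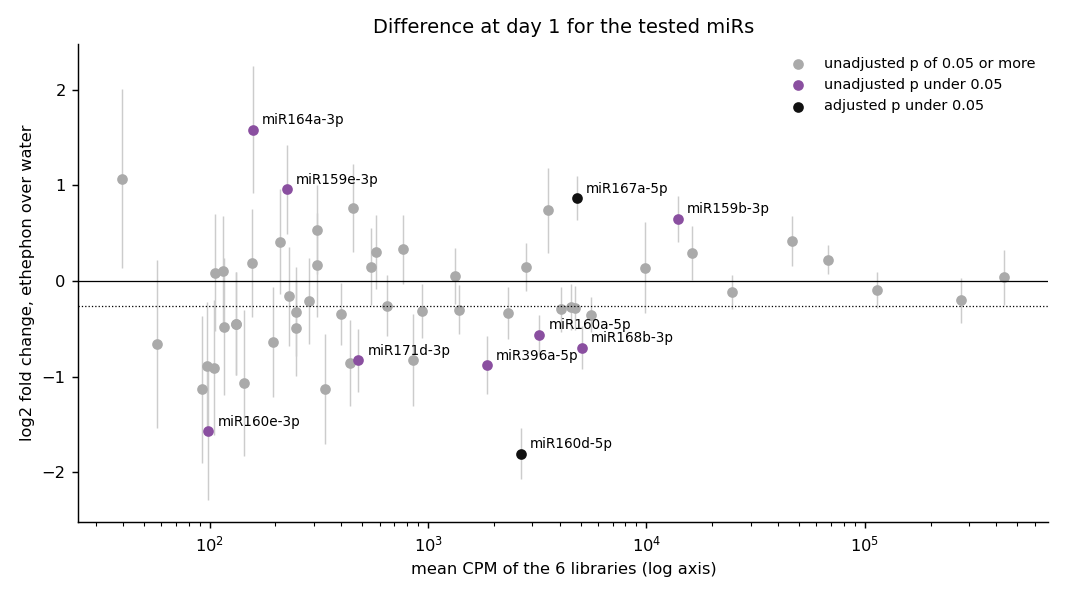
Log2 fold change of ethephon over water at day 1 for the 57 tested miRs, with bars of 1 SE, against the mean CPM of the 6 libraries on a log axis. The dotted line is the median of -0.26, and miR160d-5p (-1.80) and miR167a-5p (0.87) are the miRs with an adjusted p under 0.05.

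The day 1 difference was then set against the differences at the other 7 samplings, in the fit to all 48 libraries. For 3 of 57 miRs (5.26%) the difference at day 1 departed from the mean of the other 7. The ethephon over water log2 fold change of miR160d-5p was lower at day 1 than at the others, by a log2 difference of -0.94 (SE 0.28, edgeR adjusted p = 0.0348). That of miR167a-5p was higher by 0.88 (SE 0.25, adjusted p = 0.0260), and that of miR827a-5p by 1.80 (SE 0.50, adjusted p = 0.0260). Leaving out water replicate 1, water replicate 3 or ethephon replicate 3 left 0 called, and leaving out ethephon replicate 1 or 2 left 1. It was also 0 with totals alone or all tags as the scale, and the adjusted p ran from 0.0097 to 0.267 for miR160d-5p, from 0.0019 to 0.186 for miR167a-5p and from 0.0019 to 0.135 for miR827a-5p.

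Against the 6 hours sampling alone, 1 miR was called (1.75%). The day 1 difference of miR160d-5p was lower than that at 6 hours, with a log2 difference of -1.41 (SE 0.37, edgeR adjusted p = 0.0231), and the call was lost without water replicate 1 (adjusted p = 0.0921) or ethephon replicate 2 (0.0814). For miR167a-5p it was 1.06 higher (adjusted p = 0.0643). Against day 2, 0 were called by edgeR (0%), with 11 at an unadjusted p under 0.05 and 6 called by DESeq2. There miR160d-5p was at -1.29, miR167a-5p at 1.04 (adjusted p 0.0685 each) and miR827a-5p at 1.73 (adjusted p = 0.115).

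The levels over time showed in which treatment the day 1 libraries departed from the others. Contrasts within each treatment use the day 1 libraries that gave the differences above, so that they divide those differences and do not test them anew. Each sampling was cut on its own day, so that a sampling and the day of its harvest cannot be told apart. In water, 8 of 57 miRs (14%) at day 1 differed from the mean of the other 7 water samplings, 7 higher and 1 lower. With RLE scaling or DESeq2 there were 8, 4 higher, with totals alone 6, 4 higher, and on the scale of all tags 7, 3 higher. Without water replicate 1 there were 3, 2 of them higher. In ethephon, 2 of 57 (3.51%) differed from the other 7 ethephon samplings, both higher.

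miR160d-5p was highest in the water libraries of day 1. Its mean of 4132 CPM there was the highest of the 16 groups, and the lowest of these libraries, 3705 CPM, lay above the highest of the other 45, 2884 CPM. The other 7 water means ran from 1212 CPM at day 4 to 2212 CPM at 6 hours. In ethephon the mean was 1673 CPM at 6 hours, 1188 CPM at day 1 and 578 to 964 CPM later. Water at day 1 was 1.48 above the other water samplings on the log2 scale (SE 0.17, edgeR adjusted p = 4.4e-09), called in all 16 alternatives, and ethephon at day 1 was 0.54 above the other ethephon samplings (adjusted p = 0.158). At each of the 8 samplings the mean of miR160d-5p was lower in ethephon than in water. miR160a-5p had no such excess in water at day 1, where its difference from the other water samplings was -0.32 (edgeR adjusted p = 0.179). It was called lower there with RLE (-0.49, adjusted p = 0.0268), DESeq2 (-0.49, 0.0153) and the scale of all tags (-0.60, 0.0347). At each sampling miR160a-5p too was lower in ethephon than in water. Every water library held at least 3547 CPM of it and every ethephon library at most 3156 CPM. Its day 1 difference was 0.39 above the mean of those at the other samplings (edgeR adjusted p = 0.439).

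miR167a-5p was low in water at day 1. Its mean was 3544 CPM at 6 hours, 3392 CPM at day 1 and then 11773, 14083 and 11628 CPM at days 2, 3 and 4. In ethephon the means were 3110 CPM at 6 hours, 6205 CPM at day 1 and 10442, 14089 and 12593 CPM at days 2, 3 and 4. Both treatments thus held their highest means at days 2 to 4, and at day 1 the ethephon mean stood between its 6 hours and day 2 means, while the water mean stood near that of 6 hours. Water at day 1 was at -1.13 against the other water samplings (SE 0.19, edgeR adjusted p = 1.2e-05, called in all 16 alternatives), and ethephon at -0.25 (adjusted p = 0.429).

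For miR827a-5p the ethephon libraries of day 1 departed from the later ones. Ethephon means were 949 CPM at 6 hours and 568 CPM at day 1, and the later means ran from 353 CPM at day 2 down to 62.7 CPM at day 8. Water means were 412 CPM at 6 hours, 336 CPM at day 1 and 650 CPM at day 2. Ethephon was thus above water at 6 hours and day 1 and below it at the other 6 samplings. Ethephon at day 1 was 1.58 above the other ethephon samplings (SE 0.33, edgeR adjusted p = 0.00117, called in all 16 alternatives), and water at -0.22 (adjusted p = 0.688). The day 1 difference did not depart detectably from that of 6 hours (-0.42, with adjusted p of at least 0.559 in all 16 alternatives).

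**Figure D4:**
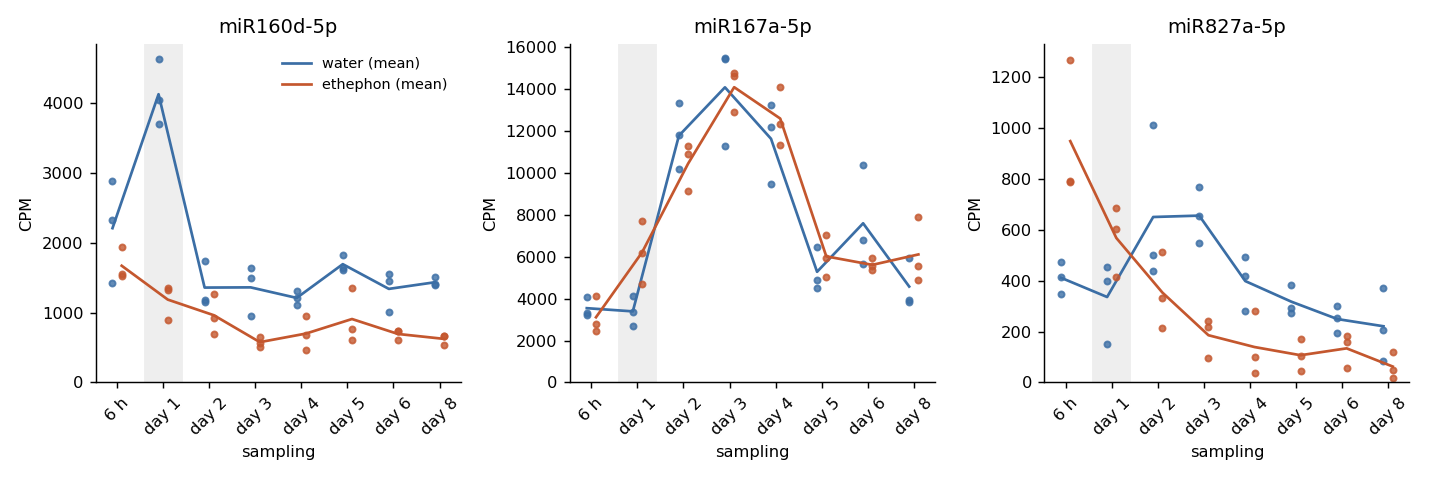
CPM of miR160d-5p, miR167a-5p and miR827a-5p at the 8 samplings, with a point for each of the 48 libraries and lines through the means of 3 water and 3 ethephon libraries. Day 1 is shaded, and there the water mean of miR160d-5p (4132 CPM) is the highest of the 16 groups.

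The remaining miRs that differed in water at day 1 from the other water samplings were higher there. They were miR166a-5p (log2 difference 1.67, edgeR adjusted p = 0.0026), miR528a-5p (1.42, 0.0026), miR171f-3p (0.68, 0.0106), miR1863a-3 (0.63, 0.0042), miR171f-5p (0.64, 0.0435) and miR396a-5p (0.62, 0.0444). The call of miR396a-5p was lost in 10 of 16 alternatives, that of miR171f-5p in 8 and that of miR171f-3p in 6. That of miR1863a-3 was lost on the scale of all tags (adjusted p = 0.247) and without water replicate 1 (0.113), and that of miR528a-5p without water replicate 1 (0.0838). miR171f-3p was also the other miR called higher in ethephon at day 1 (0.83, adjusted p = 0.0029), a call lost with totals alone (adjusted p = 0.127), on the scale of all tags (0.0848) and without ethephon replicate 2 (0.0605). Its ethephon over water log2 fold change at day 1 was -0.34, and that of miR1863a-3 was -0.28.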

How the data were processed

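Small RNA libraries of 48 apex samples were sequenced, and the 6 of day 1 were compared here. The authors removed adapters, collapsed identical reads and aligned unique sequences to mature miRs of miRBase version 22. The deposited table gives raw counts for 190 sequences. A score that the authors scaled to the sequencing tags of a library and rounded stands beside them, and served only to recover the number of tags. Another deposited file, a list without measurements, pairs the sequences with 253 names. Aligner and mismatch settings: not given in the sources used here. Genome positions and target sites were not used.

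Tests started from these counts and used edgeR 4.0.16 (R 4.3.3). Its filterByExpr function (minimum count 10, minimum total count 15, 16 groups) kept 57 sequences, and TMM factors and a quasi-likelihood model with 16 group means were fitted to all 48 libraries (common biological coefficient of variation 0.246). The study's own edgeR tests were made pairwise. Contrasts were ethephon minus water at day 1, that difference against the other 7 samplings, 6 hours and day 2, and day 1 against the other 7 samplings within each treatment. A call needed a p under 0.05 after Benjamini-Hochberg adjustment across all tested sequences. The SE was derived from F, as the size of the log2 fold change over its square root. Within-library ratios added 0.5 to each count, and ratios and depth measures were compared by exact permutation over 6 libraries (scipy 1.17.1). Code was tested on simulated data. Alternatives were other scalings and filters, DESeq2 1.42.0, limma-voom 3.58.1, the 6 libraries alone, a replicate block and leaving out libraries.

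The comparison, the lists and the tests were chosen with earlier results of these data known. The rule for named miRs took those called or with an unadjusted p under 0.05 at day 1, those called in the contrasts of differences, all tested miR156, miR157, miR160, miR167 and miR172, the 10 most abundant, up to 4 of each list by p, and the other arms of these. It gave 39 miRs. miR171f-3p, miR171f-5p and miR1863a-3 were added after their values were seen, as were the miR390, miR393 and other members given beside their lists. Lists followed family numbers: miR160, miR167, miR390 and miR393 for auxin; miR164, miR165, miR166, miR171 and miR394 for boundary, meristem and polarity; miR156, miR157, miR172 and miR529 for age and phase; miR319 and miR396 for TCP and GRF growth factors; miR159, miR828 and miR858 for MYB; miR395, miR399 and miR827 for phosphate and sulfate; miR397, miR398, miR408, miR528 and miR857 for copper; miR162, miR168 and miR403 for small RNA machinery; miR444, miR528, miR529, miR535 and miR1432 as lineage-limited; and miR472, miR482 and miR2118 for NBS-LRR defence.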

Additional observations from a re-analysis of the deposited data

Results flagged for a closer look

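The ethephon over water difference at day 1 was set apart for 3 miRs because it differed, by the test of the difference itself in edgeR, from that at other samplings. Against the mean of the other 7 samplings the log2 difference was -0.94 for miR160d-5p (adjusted p = 0.0348), 0.88 for miR167a-5p (adjusted p = 0.0260) and 1.80 for miR827a-5p (adjusted p = 0.0260), each called in 9 or 10 of 16 alternatives. Against 6 hours it was -1.41 for miR160d-5p (adjusted p = 0.0231), called in 14 of 16. Contrasts within each treatment use the same day 1 libraries and make up the differences against the other 7 samplings. They place these differences and do not test them anew. For miR160d-5p and miR167a-5p the water libraries of day 1 departed from the other water samplings, and for miR827a-5p the ethephon libraries of day 1 departed from the mean of the other ethephon samplings. The 6 hours ethephon mean of miR827a-5p was higher still (949 CPM beside 568 CPM at day 1), and its day 1 difference was at -0.42 against that of 6 hours (adjusted p of at least 0.559 in all 16 alternatives).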

How the results depend on the processing

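Over 42 named miRs, 723 alternative values of the day 1 difference were computed, of which 679 kept their direction and side of the threshold, 16 passed it anew, 5 no longer passed it and 23 changed sign. The 5 were all of miR167a-5p, and their adjusted p values are in the report. Of the 2 miRs called, 1 was left on the scale of all sequencing tags and 1 without the filter on low counts. The fit to the 6 libraries alone, with 43 tested, called 6 (2 higher, 4 lower), and added miR159b-3p, miR160a-5p, miR168b-3p and miR396a-5p. The cause of these changes was not tested. With RLE and DESeq2, miR166a-3p was at 0.035 and 0.035 and miR166b-3p at 0.045 and 0.045. Without the filter miR159c-3p was at -0.073, miR171a-5p at -0.0057 and miR171f-5p at -0.048. The family totals called numbered 1 on the scale of all tags, 4 where TMM factors left out the most abundant miR and 4 in the 6 libraries alone.

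The difference against the other 7 samplings gave 0 calls with totals alone and 0 on the scale of all tags. That against 6 hours gave 2 with RLE and 2 with DESeq2. That against day 2 gave 1 with RLE and on the scale of all tags, 2 with TMM without the most abundant miR, without the filter and with the stricter filter (minimum count 30), and 6 with DESeq2. Ethephon at day 1 against other ethephon samplings gave 1 with totals alone and 1 on the scale of all tags. There miR160a-5p, at 0.06, was at -0.0011 with RLE, -0.11 with totals alone, -0.016 on the scale of all tags and -0.012 without the filter.

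Leaving out each day 1 library in turn, and replicate 2 of ethephon at day 5, which had the fewest counts (an alternative chosen after seeing the data), the number called at day 1 ran from 1 to 3. It ran from 0 to 3 against the other samplings, 0 to 2 against 6 hours, 0 to 2 against day 2, 3 to 9 for water against its other samplings, 1 to 3 for ethephon and 1 to 3 for families. Log2 fold changes at day 1 that changed sign ran from -0.12 to 0.25 for miR159c-3p, -0.11 to 0.88 for miR160a-3p, -0.29 to 0.40 for miR164a-5p, -0.72 to 0.20 for miR164c-3p, -0.20 to 0.011 for miR166b-3p, -0.32 to 0.32 for miR171a-5p, -0.063 to 0.12 for miR171f-5p, -1.66 to 1.26 for miR528c-3p and -0.36 to 0.37 for miR530a-5p. miR160a-5p in ethephon ran from -0.021 to 0.17 and miR827a-5p in water from -0.53 to 0.14. Log2 ratio differences ran from -0.050 to 1.13 (miR160a-5p over miR160b-3p), -0.56 to 0.20 (miR160d-5p over miR160e-3p), -0.26 to 0.80 (miR164a-5p over miR164c-3p), -0.15 to 0.52 (miR171a arms), -0.15 to 0.57 (miR171c arms), -0.18 to 0.047 (miR390a arms), -0.47 to 0.42 (miR396a arms), -0.58 to 0.062 (miR530a arms) and -0.29 to 0.31 (miR827a arms). Of values that kept their sign, miR396a-3p ran from -1.37 to -0.12, miR172b-3p from -1.56 to -0.20, miR166a-5p from -1.83 to -0.72, miR160b-3p from -1.45 to -0.48 and miR160e-3p from -2.34 to -1.28. Differences in log2 total count ran from -0.063 to 0.26, in the percent of counts in the miR159 family from -2.03 to 2.57, in the most abundant miR from -1.63 to 6.39, and in the percent of tags in listed miRs from -0.047 to 0.060.

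A fit with the replicate number as a block called 4 miRs in the 48 libraries, adding miR168b-3p and miR396a-5p (adjusted p 0.0413 each), and 8 of 43 in the 6 libraries, where miR159b-3p, miR827a-3p, miR528a-5p (adjusted p = 0.0482) and miR159a-3p (0.0440) were called as well. The field plot was divided into 3 replications that held both treatments, so that the design was blocked. No label ties a library number to a replication. Same-numbered water and ethephon libraries of day 1 correlated in their deviations by only 0.01, 0.05 and 0.07, though each library correlated best with its own number. Whether the numbers mark the field replications is thus not known. The main fit did not treat the samples as paired, and the fit with the block is given beside it. Depth limits the miRs near 3 counts per library, miR156 among them.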
